A study of Mus musculus with 8 samples.

Results

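Heterotrimeric G proteins couple receptors at the plasma membrane to enzymes and ion channels inside the cell. An α subunit binds GTP when a receptor is activated and parts from the βγ dimer, and both pieces then act on effectors until the α subunit hydrolyses its GTP. RGS proteins (regulators of G protein signalling) speed up that hydrolysis and so shorten the signal. In neurons this system carries the slower signals of dopamine, acetylcholine, GABA, glutamate and many peptides. α subunits are grouped as Gs (which stimulates adenylyl cyclase), Gi/o (which inhibits it), Gq/11 (which activates phospholipase C) and G12/13 (which acts on the cytoskeleton).

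The members described here are the genes of the count table whose symbol begins as those of the α (Gna), β (Gnb1 to Gnb5), γ (Gng) or RGS (Rgs) genes do. The rule found 57 of the 22430 genes, namely 16 α, 6 β, 12 γ and 23 RGS genes. Gnb1l, Rgs7bp and Rgs9bp entered by their symbols alone and encode no β subunit and no RGS domain protein of the usual kind. Whole brain hemispheres of male C57Bl/6JRj mice were compared at 2 ages, young adults of 6 months (6m) and aged animals of 24 months (24m), with 4 mice and 1 ONT direct RNA library per mouse at each age. All animals were of the same inbred wild-type strain and no treatment is named. Each library counted between 573152 and 1255424 reads on genes, so that 3 reads, the number that a count of 0 still allows, correspond to 2.3 to 5.42 CPM (counts per 1000000 reads of a library, with TMM factors). This limit, and the exact intervals given below for read totals, cover counting error only.

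Of the 57 members, 38 had a mean count over 5 and were tested, 13 were counted at lower levels and 6 had no read in any library. The 6 without reads are Gna14, a Gq/11 gene, Gnat3, the taste α subunit, Rgs18, Rgs21, Rgs22 and Rgs9bp. A member was called changed when its p in edgeR's quasi-likelihood test, adjusted over 9375 genes by Benjamini-Hochberg, was 0.05 or less and it had an absolute log2FC of at least 0.58. Throughout, log2FC is 24m against 6m, and CPM are given for replicates 1 to 4 in order. The SE of a log2FC is its absolute value divided by the square root of the test's F statistic. Intervals of a log2FC are normal approximations at 95% confidence built on that SE, and near the limit they can differ from the test.

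The γ subunits show one feature of the family that their coding sequence carries. The last codons encode a cysteine followed by 3 residues, and the lipid that anchors the βγ dimer in the membrane is attached to that cysteine. A final leucine is the signal for a geranylgeranyl lipid and a final serine that for a farnesyl lipid. The last 15 bases of the coding sequence of the 10 tested γ genes are printed from GENCODE vM39 transcripts (GRCm39), 5′ to 3′ on the coding strand and ending with the stop codon, with the codon of the final residue in capitals.
Gng7: tgcataattCTCtag
Gng3: tgtgcgctcCTCtga
Gng13: tgcaccatcCTAtga
Gng5: tgctcctttTTGtag
Gng2: tgcgccatcCTTtaa
Gng4: tgcaccatcCTCtaa
Gng8: tgcaccctgCTCtga
Gng10: tgtgctctaCTTtga
Gng12: tgcatcatcTTAtag
Gng11: tgtgtcattTCAtaa
The sequence of Gng7 lies at chr10:80787455-80787469 on the minus strand, that of Gng3 at chr19:8815507-8815521 on the minus strand and that of Gng11 at chr6:4008146-4008160 on the plus strand. In 9 of the 10 genes the final codon is one for leucine, and only in Gng11 among them is it one for serine. For Gng7 the sequence is that of the commoner coding end, shared by 21 of its 22 annotated transcripts with a stop codon, because its canonical transcript ends otherwise. The cysteine stands in 1 of 2 such transcripts of Gng11 and in 7 of 10 of Gng10, the lowest shares among the genes printed. Gng7 is the only called gene and Gng11 the only one with serine, so the endings cannot be compared with the differences with age.

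Of the 38 tested members, 8 were higher and 2 were lower at 24m. That is 26.3% of the tested members, against 14.5% of all tested genes called in either direction, 10.3% called higher and 4.17% called lower. The higher members were the α genes Gna11, Gna12, Gnai2 and Gnao1, the β gene Gnb1, the γ gene Gng7, and Rgs4 and Rgs8. The lower members were Rgs17 and Rgs7bp, both counted at under 20 CPM in every library. Their mean counts over the 8 libraries were 5.5 and 6.75, and they passed the count minimum of 5 only through the young libraries. The count of lower members therefore rests on genes that entered the test in this way. By the adjusted p alone 12 members passed, against 21.7% of all genes, and the libraries of the 2 ages did not overlap in 12 members, against 21.1% of all genes. The median log2FC was 0.18 over the tested members and -0.003 over all 9375 genes.

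**Figure D1:**
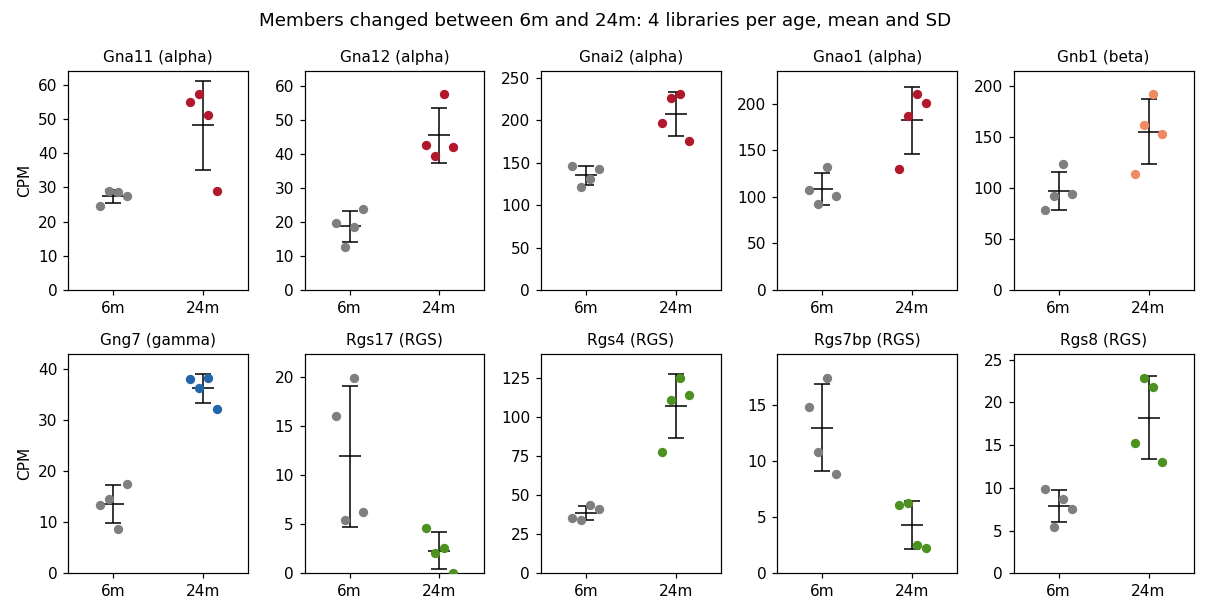
CPM (vertical axis, from 0) of the 10 called members at 6m (grey) and 24m (coloured by class), with 1 point per library in the order of replicates 1 to 4 and the mean and SD in black. Rgs4 rose from 34.4 to 43.6 CPM at 6m to 77.7 to 125.4 CPM at 24m, and Rgs17 and Rgs7bp were low at both ages.

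Of the 9 tested α genes 4 were higher and none was lower, where 10.3% of all tested genes were called higher and 4.17% lower, and their median log2FC was 0.60. Without aged replicate 2 the α genes called were Gna12 and Gnao1. Whether the classes differ in their share of calls was not tested. Of the 9, 8 had a log2FC above 0. The called genes belong to Gi/o (2 of 4 tested), Gq/11 (1 of 1) and G12/13 (1 of 2), and neither tested Gs gene was called. All α genes together summed to 2497.9 ± 113.9 CPM in the young libraries and 2714.5 ± 266.4 in the aged ones (SD, n = 4), and the ages overlapped (2431.0 to 2668.4 against 2368.7 to 3018.3). Most of it came from Gnas. The sum over the α genes other than Gnas was 379.1, 327.3, 410.7 and 370.4 CPM at 6m and 507.6, 633.2, 660.3 and 576.0 CPM at 24m, with means of 371.9 ± 34.4 and 594.3 ± 67.6 (SD, n = 4). The sums without Gnas did not overlap between the ages. They leave out an uncalled gene and keep all 4 called ones, and no such sum was made for the other classes.

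Gna12 (ENSMUSG00000000149, chromosome 5, 140744158 to 140816336), which signals to the cytoskeleton through guanine nucleotide exchange factors, had the largest log2FC among the α genes. It was counted at 19.7, 12.7, 18.7 and 23.9 CPM at 6m and at 42.7, 39.5, 57.6 and 42.2 CPM at 24m. Each aged library lay above each young one, and the log2FC was 1.23 ± 0.223 (SE, adjusted p = 0.000369). Gna13, the other gene of its subfamily, stood at 8.71 to 14.8 CPM at 6m and 7.68 to 18.3 CPM at 24m. Its ages overlapped, and the interval of its log2FC, -0.55 to 0.77, leaves changes of that size undetectable at this depth. The ratio of Gna12 to Gna13 counts within a library ranged from 0.875 to 2.14 at 6m and from 2.33 to 7.5 at 24m, so that it was higher in each aged library. Here and below, a ratio of a called gene to an uncalled one restates their differences and is no separate test. Part of Gna12 shares exon bases with Amz1 on the opposite strand, and reads of the pair cannot be told apart if the counting ignored strand.

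Gnao1 (ENSMUSG00000031748, chromosome 8, 94536594 to 94696016) encodes Go, the α subunit through which many neuronal receptors close calcium channels and open potassium channels. Its CPM were 107.1, 92.2, 131.9 and 100.5 at 6m and 129.6, 187.1, 209.9 and 201.0 at 24m, with a log2FC of 0.76 ± 0.146 (adjusted p = 0.000634). Aged replicate 1 fell just below the highest young library, and the other aged libraries lay above all young ones. Gnai2 (ENSMUSG00000032562, chromosome 9, 107491324 to 107512626), a broadly expressed Gi subunit that microglia and other immune cells use in chemotaxis, was counted at 146.5, 121.1, 130.7 and 141.9 CPM and then at 196.6, 225.6, 230.3 and 175.7 CPM. Its libraries did not overlap, and the log2FC of 0.60 ± 0.122 (adjusted p = 0.00101) stood just above the fold minimum. Without young replicate 2, aged replicate 2 or aged replicate 3 it was 0.57, 0.56 and 0.56, and the call was lost on the fold alone. Summed markers of microglia ranged from 395.1 to 439.5 CPM at 6m and from 492.4 to 692.0 CPM at 24m, with 1 of 4 tested markers called higher, and their part in the difference of Gnai2 was not tested.

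Gna11 (ENSMUSG00000034781, chromosome 10, 81364558 to 81381060), a Gq/11 subunit that activates phospholipase C-β, stood at 24.6, 28.9, 28.6 and 27.6 CPM at 6m. At 24m it stood at 54.9, 57.2, 51.2 and 29.1 CPM. Aged replicate 4 was close to the young libraries and the other aged libraries were well above them (log2FC 0.77 ± 0.222, adjusted p = 0.0151). The call was lost without aged replicate 2 (log2FC 0.65, adjusted p = 0.0734). Gnaq, the partner of Gna11 in the same subfamily, was counted with 1, 0, 1 and 4 reads at 6m and 7, 5, 3 and 8 reads at 24m, too few to be tested. The reads added up to 6 at 6m and 23 at 24m, and the ratio scaled to library size was 3.07, with an exact interval at 95% confidence of 1.22 to 9.22 that covers counting error only.

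Gnai1, another Gi subunit, had the smallest p of the uncalled α genes. It was counted at 27.1, 28.9, 53.5 and 23.9 CPM at 6m and at 32.0, 59.3, 44.8 and 62.1 CPM at 24m, and the ages overlapped. Its log2FC of 0.61 ± 0.232 exceeded the fold minimum but its adjusted p was 0.0596. Young replicate 3 was the high library of its age, and without it the log2FC was 0.96 and the adjusted p 0.00886. Gnaz, a Gi/o subunit that hydrolyses GTP slowly, had a log2FC of 0.38 ± 0.318 (adjusted p = 0.43). The Gi gene Gnai3 was not tested, with 10 reads in all at 6m and 17 at 24m. Gnat1 and Gnat2, the α subunits of rod and cone photoreceptors, did not exceed 3 reads in any library.

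Gnas, which encodes the widely expressed stimulatory α subunit and is an imprinted locus with several first exons, was by far the most counted member. Its CPM were 2051.9, 2117.4, 2257.7 and 2077.0 at 6m and 1861.1, 2092.8, 2084.6 and 2442.2 at 24m. The young libraries lay within the range of the aged ones, the fold was 0.998, and the interval of the log2FC reached from -0.18 to 0.17. The ratio of Gnao1 to Gnas counts was 0.0522, 0.0436, 0.0584 and 0.0484 at 6m and 0.0696, 0.0894, 0.101 and 0.0823 at 24m. It was higher in each aged library than in each young one. Gnal, which encodes Golf, the stimulatory α subunit of the olfactory epithelium and the striatum, stood at 7.23 to 18.5 CPM at 6m and 9.15 to 24.3 CPM at 24m (log2FC 0.42 ± 0.34, adjusted p = 0.416).

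**Figure D2:**
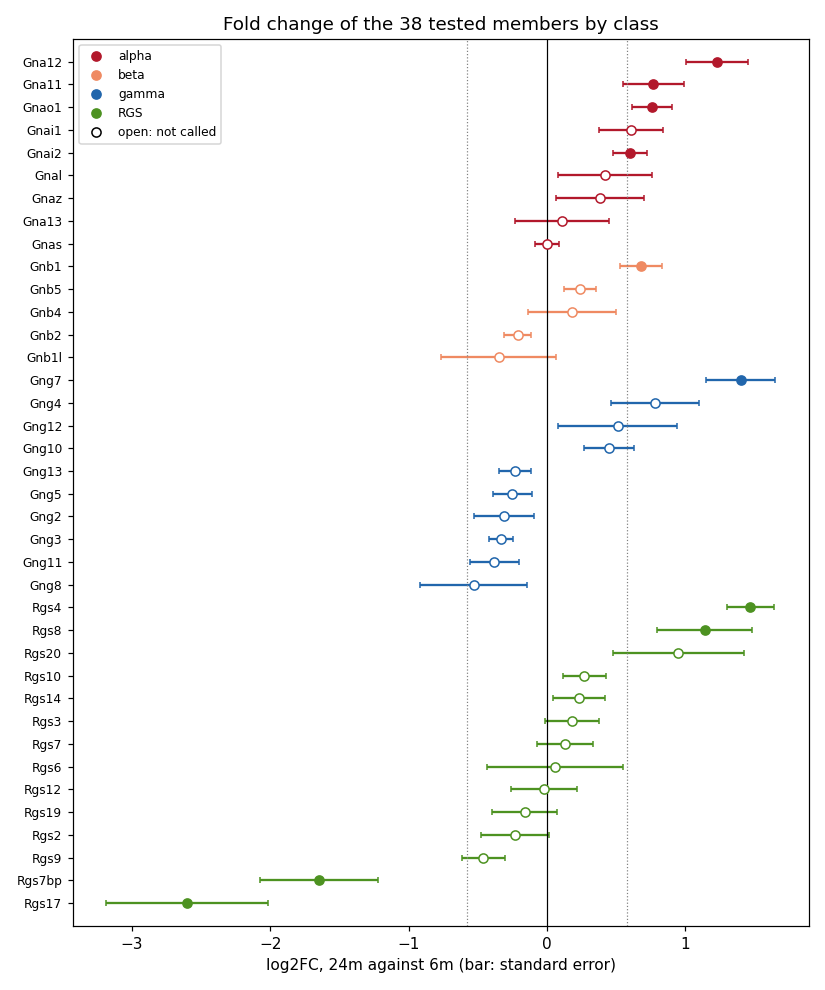
log2FC of 24m against 6m (horizontal axis, bars are standard errors) of the 38 tested members, grouped by class, with filled points for called members and dotted lines at the fold minimum of 0.58. Among α genes 8 of 9 points lie above 0, and among γ genes 4 of 10 do.

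Among the β genes 1 of 5 tested members was higher and none was lower, with a median log2FC of 0.18. Without Gnb1l, which entered by its symbol alone, it was 1 of 4, with a median of 0.21. Of all tested genes 10.3% were called higher and 4.17% lower. Gnb1 (ENSMUSG00000029064, chromosome 4, 155566095 to 155644327), a β subunit found in most cells, was counted at 78.8, 92.2, 123.2 and 94.2 CPM at 6m and 114.3, 162.2, 192.0 and 152.6 CPM at 24m. Young replicate 3 exceeded aged replicate 1, while the other aged libraries lay above all young ones (log2FC 0.68 ± 0.155, adjusted p = 0.00285). Without aged replicate 3 the log2FC fell just short of the fold minimum (adjusted p = 0.0177). Gnb2, its close homologue, was counted at 689.3, 757.6, 612.3 and 690.7 CPM at 6m and 710.3, 534.4, 574.6 and 564.5 CPM at 24m. Aged replicate 1 stood among the young libraries and the other aged libraries below them, and the log2FC of -0.21 ± 0.0975 was not called (adjusted p = 0.129). The ratio of Gnb1 to Gnb2 counts ranged from 0.114 to 0.201 at 6m and from 0.161 to 0.334 at 24m, and the ages overlapped. Gnb2 shares exon bases with Gigyf1 and Actl6b on the opposite strand and with Epo on its own.

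Gnb5 differs from the other β genes in that its protein pairs with the R7 group of RGS proteins in place of a γ subunit. Its CPM were 142.8, 139.2, 140.6 and 143.2 at 6m and 164.6, 153.9, 181.7 and 167.2 at 24m. The ages did not overlap, but the log2FC of 0.24 ± 0.115 lay under the fold minimum and did not pass the test (adjusted p = 0.147). Gnb4 and Gnb1l had log2FC of 0.18 ± 0.317 and -0.35 ± 0.416, and neither was called. Gnb3, the β subunit of cone photoreceptors, had 2 reads in all at 6m and 4 at 24m. The summed CPM of the β genes, Gnb1l included, was 950.2 ± 52.5 at 6m and 943.4 ± 70.6 at 24m (SD, n = 4).

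Among the γ genes 1 of 10 tested members was higher and none was lower, beside 10.3% and 4.17% of all tested genes. The share of γ genes called higher was thus near that of all tested genes. The median log2FC of the γ genes was -0.24. Gng7 (ENSMUSG00000048240, chromosome 10, 80784447 to 80850779), the γ subunit that pairs with Golf in striatal neurons, stood at 13.5, 14.5, 8.71 and 17.6 CPM at 6m and at 38.1, 36.4, 38.4 and 32.2 CPM at 24m. The lowest aged library lay well above the highest young one, and the log2FC was 1.40 ± 0.249 (adjusted p = 0.000291). The annotated gene holds a processed pseudogene, Gm3828, on the same strand, which is not a row of the table.

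Gng3, a γ subunit of neurons, was the most counted γ gene and had the smallest p of those not called. It was counted at 866.5, 889.6, 871.2 and 837.6 CPM at 6m and 771.3, 626.9, 662.9 and 692.6 CPM at 24m. Each aged library lay below each young one and the adjusted p was 0.0078, but the log2FC of -0.33 ± 0.087 did not reach the fold minimum. The ratio of Gng7 to Gng3 counts was 0.01 to 0.021 at 6m and 0.0465 to 0.058 at 24m, without overlap. Gng7 was called and Gng3 was lower, so this ratio restates those differences. The ratio of Gng7 to Gnal counts overlapped between the ages, at 0.733 to 2.0 at 6m and 1.58 to 4.17 at 24m. Gng3 shares exon bases with Bscl2 on the opposite strand.

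Gng13, a γ subunit of taste, retinal and some cerebellar cells, was counted at 571.1, 484.6, 468.0 and 452.1 CPM at 6m and 562.4, 378.4, 377.5 and 377.4 CPM at 24m. Aged replicate 1 stood among the young libraries and the other aged libraries were almost equal and lower (log2FC -0.23 ± 0.116, adjusted p = 0.157). Without aged replicate 1 the log2FC reached -0.38 (adjusted p = 0.0014), still under the fold minimum. Gng5, a widely expressed γ subunit, stood at 94.8, 81.4, 100.8 and 85.4 CPM and then at 73.2, 73.8, 78.1 and 80.5 CPM, without overlap (log2FC -0.25 ± 0.141, adjusted p = 0.221). Most exon bases of Gng5 also belong to Rpf1 on the opposite strand, and those of Gng13 overlap Chtf18 in part.

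The remaining γ genes were not called. Gng4 had a log2FC of 0.78 ± 0.32 (adjusted p = 0.0821), with aged replicate 4 at 33.0 CPM and all other libraries between 8.62 and 19.2 CPM. Gng10 and Gng12 had log2FC of 0.45 and 0.51, and Gng2, Gng8 and Gng11 had log2FC of -0.31, -0.53 and -0.38. Gng11, the gene with the serine ending, is a γ subunit of vascular and other non-neuronal cells. It ranged from 43.4 to 82.5 CPM at 6m and from 43.5 to 62.1 CPM at 24m. Summed endothelial markers ranged from 90.4 to 119.5 CPM and from 66.0 to 94.7 CPM, with none of 2 tested markers called. Of these, Ly6c1 did not overlap between the ages and missed the fold minimum narrowly (log2FC -0.58, adjusted p = 0.015). Cldn5 had a log2FC of -0.45 (adjusted p = 0.256). The part of vascular cells in the values of Gng11 was not tested. Gng14 was not tested, with 23 reads at 6m and 12 at 24m, a scaled ratio of 0.418 with an exact interval of 0.189 to 0.875. The sum over γ genes was 1741.7, 1645.4, 1651.6 and 1594.8 CPM at 6m and 1609.6, 1282.9, 1330.9 and 1420.6 CPM at 24m, where aged replicate 1 lay among the young libraries.

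**Figure D3:**
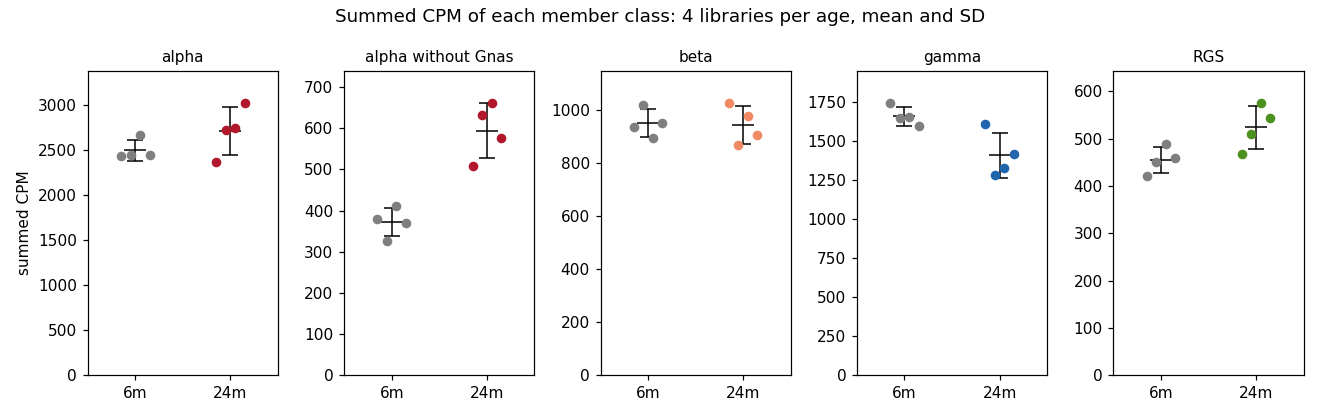
Summed CPM of each class (vertical axis, from 0, with a scale of its own in each panel) at 6m (grey) and 24m (coloured), with 1 point per library and the mean and SD in black. Only the α genes without Gnas were free of overlap among the 5 sums drawn, at 327.3 to 410.7 CPM against 507.6 to 660.3 CPM. That sum leaves out the most counted α gene, which was not called. No gene was left out of the other classes, so the sums are not alike in this.

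Of the 14 tested RGS genes 2 were higher and 2 lower, where 10.3% of all tested genes were higher and 4.17% lower. Rgs7bp, which entered by its symbol alone, is among both the tested and the lower ones. The median log2FC of the RGS genes was 0.10. Both higher RGS genes belong to the R4 group, small proteins of little more than an RGS domain, of which 4 were tested. Rgs4 (ENSMUSG00000038530, chromosome 1, 169569046 to 169575218), a neuronal R4 protein that acts on Gi/o and Gq, had the largest log2FC of all members. Its CPM were 35.7, 34.4, 43.6 and 41.4 at 6m and 77.7, 111.2, 125.4 and 114.3 at 24m. The lowest aged library was far above the highest young one, and the log2FC was 1.47 ± 0.171, a 2.76-fold difference (adjusted p = 1.06e-06). The ratio of Rgs4 to Rgs9 counts was 0.592, 0.514, 0.53 and 0.541 at 6m and 1.34, 2.18, 2.39 and 2.33 at 24m, so that the order of the pair's counts was turned in each aged library. These counts are not corrected for transcript length.

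Rgs8 (ENSMUSG00000042671, chromosome 1, 153528714 to 153576069), an R4 protein known from cerebellar Purkinje cells, was counted with 8, 3, 7 and 6 reads at 6m and 10, 22, 17 and 17 reads at 24m, which is 7.88 ± 1.89 and 18.2 ± 4.83 CPM (SD, n = 4). The ages did not overlap in CPM, and the log2FC was 1.14 ± 0.345 (adjusted p = 0.0191). The call was lost without aged replicate 2 (adjusted p = 0.0756) or aged replicate 3 (adjusted p = 0.0568). Summed Purkinje cell markers ranged from 489.1 to 825.9 CPM at 6m and from 671.9 to 906.9 CPM at 24m, with 1 of 4 called higher, and their part in the difference was not tested. The other tested R4 genes, Rgs2 (log2FC -0.23 ± 0.246) and Rgs3 (0.18 ± 0.195), were not called. Rgs16 was not tested, with 12 reads at 6m and 25 at 24m and a scaled ratio of 1.67, whose exact interval of 0.808 to 3.65 includes no difference. Rgs5, a gene of pericytes, had between 1 and 5 reads in each library.

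Rgs17 (ENSMUSG00000019775, chromosome 10, 5775663 to 5872407), an RZ protein that acts on Gz and other Gi/o subunits, had the lowest log2FC of the members. It was counted with 13, 3, 16 and 5 reads at 6m and with 3, 2, 2 and 0 reads at 24m, that is 16.0, 5.42, 19.9 and 6.28 CPM against 4.57, 2.08, 2.56 and 0.0 CPM. Young replicates 1 and 3 carried most of its reads, and the ages did not overlap. The reads added up to 37 and 7, and the ratio scaled to library size was 0.152, with an exact interval of 0.057 to 0.344. The test gave a log2FC of -2.60 ± 0.585 (adjusted p = 0.00258). Without young replicate 1 or young replicate 3 the gene fell under the count minimum and was not tested. The other RZ genes were not called. Rgs20 ranged from 3.62 to 9.85 CPM at 6m and from 1.52 to 25.3 CPM at 24m (log2FC 0.95 ± 0.475, adjusted p = 0.159), and Rgs19 had a log2FC of -0.16 ± 0.235.

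The promoters of Rgs4 and Rgs17, the members with the highest and the lowest log2FC, are printed to set them side by side. Each is the run of 250 bases before the transcription start, 5′ to 3′ on the strand of the gene (minus in both), from RefSeq on GRCm38.p6, at chr1:169747643-169747892 and chr10:5922401-5922650. Capitals mark, on either strand, TGACG (part of the cAMP response element), GGGCGG (the GC box), TATAAA (the TATA box), CCAAT (the CCAAT box) and CACGTG (an E-box).
Rgs4: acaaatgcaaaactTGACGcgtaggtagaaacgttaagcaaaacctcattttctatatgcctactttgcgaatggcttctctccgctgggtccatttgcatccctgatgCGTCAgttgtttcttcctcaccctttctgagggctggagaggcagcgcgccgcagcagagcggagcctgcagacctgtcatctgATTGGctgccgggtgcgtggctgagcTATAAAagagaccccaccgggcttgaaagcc
Rgs17: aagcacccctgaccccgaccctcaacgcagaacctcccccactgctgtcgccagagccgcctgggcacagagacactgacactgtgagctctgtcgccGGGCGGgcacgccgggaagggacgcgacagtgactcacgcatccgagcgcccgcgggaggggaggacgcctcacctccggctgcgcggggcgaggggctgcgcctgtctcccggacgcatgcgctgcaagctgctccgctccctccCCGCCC
Rgs4 holds TATAAA from 31 bases before the start, and TGACG and CCAAT, while Rgs17 holds GGGCGG and none of the others. In windows of 300 bases, which add 50 bases after the start, TATAAA stands in 13.6% of 32851 RefSeq promoters, TGACG in 20.8%, CCAAT in 37.4%, GGGCGG in 35.7% and CACGTG in 7.15%. Of the 12 promoters listed for the called members, with none for Gnai2, 1 holds TATAAA, 5 hold TGACG, 7 hold CCAAT and 5 hold GGGCGG. The full palindrome TGACGTCA, which contains TGACG, stands in none of the 12 and in 1.79% of all promoters. These letters are a description of the windows and mark no binding site.

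The R7 proteins work in a complex with Gnb5 and, in neurons, with Rgs7bp, the protein that anchors the complex in the membrane. Rgs7bp (ENSMUSG00000021719, chromosome 13, 105082412 to 105191620) was counted with 12, 6, 14 and 7 reads at 6m and with 4, 6, 2 and 3 reads at 24m, or 14.8, 10.8, 17.4 and 8.79 CPM against 6.1, 6.24, 2.56 and 2.3 CPM. Each aged library lay below each young one in CPM, the log2FC was -1.65 ± 0.426 (adjusted p = 0.00728), and the scaled ratio of 39 to 15 reads was 0.308 with an exact interval of 0.158 to 0.572. Rgs7bp passed the count minimum only through its young libraries, so the test and the lack of overlap start from that selection. Its partners were not called. Rgs9, the R7 gene of the striatum and the retina, stood at 60.3, 66.9, 82.1 and 76.6 CPM at 6m and 57.9, 50.9, 52.5 and 49.1 CPM at 24m, without overlap, and its adjusted p was 0.0374 at a log2FC of -0.46 ± 0.157, under the fold minimum. Rgs7 and Rgs6 had log2FC of 0.13 ± 0.2 and 0.06 ± 0.491, and Rgs11 was not tested. Gpr158, an orphan receptor that binds the R7 complex, had 1.81 to 6.22 CPM at 6m and 6.9 to 18.3 CPM at 24m (log2FC 1.05 ± 0.456, adjusted p = 0.0996). The ratio of Rgs7bp to Rgs7 counts ranged from 0.233 to 0.5 at 6m and from 0.0492 to 0.235 at 24m, with a narrow overlap.

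The R12 genes were not called. Rgs10, which is abundant in microglia and was the most counted RGS gene, stood at 65.2, 57.9, 74.7 and 90.4 CPM at 6m and 79.3, 84.2, 90.9 and 93.6 CPM at 24m (log2FC 0.27 ± 0.154, adjusted p = 0.229). The aged libraries were close together and young replicate 4 stood among them. Rgs14, known from hippocampal area CA2, had a log2FC of 0.23 ± 0.186, and Rgs12 one of -0.02 ± 0.239.

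**Figure D4:**
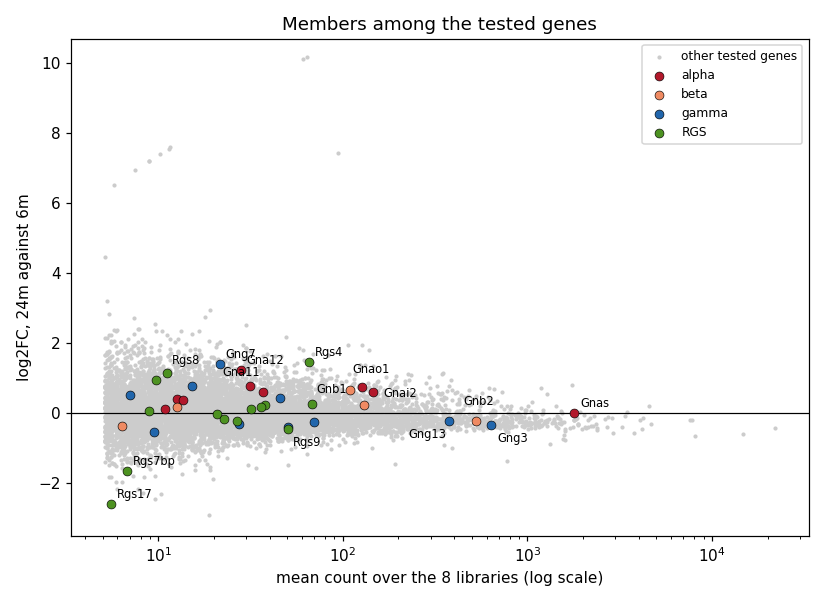
Mean count over the 8 libraries (horizontal, log scale) against log2FC of 24m to 6m (vertical) for the 9375 tested genes in grey, with the members coloured by class. Rgs17 and Rgs7bp sit at the left, at mean counts near the minimum of 5, and the most counted members, Gnas, Gng3, Gnb2 and Gng13, at log2FC between -0.33 and 0.

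The receptors, effectors and modulators that work with these proteins were described with a list of 96 genes, of which 60 were tested, 16 were higher and 2 were lower, with a median log2FC of 0.17, beside 10.3% higher and 4.17% lower among all tested genes. Of 24 tested receptors 8 were higher and none was lower. S1pr1, a receptor for sphingosine 1-phosphate that couples to Gi, rose from 18.5, 14.5, 27.4 and 20.1 CPM to 38.1, 50.9, 48.6 and 52.2 CPM (log2FC 1.23 ± 0.214, adjusted p = 0.000236). Chrm1, the muscarinic receptor coupled to Gq/11, rose from 48.0, 59.7, 31.1 and 45.2 CPM to 93.0, 94.6, 96.0 and 67.5 CPM (0.94 ± 0.181, adjusted p = 0.000653). Gabbr2, the subunit of the GABA-B receptor that couples to Gi/o, stood at 6.15 to 19.9 CPM at 6m and 19.8 to 56.3 CPM at 24m (1.55 ± 0.323, adjusted p = 0.00138). Gabbr1, the other and far more counted subunit, was not called (0.08 ± 0.0903, adjusted p = 0.578). It stood at 470.5 to 553.8 CPM at 6m and 487.8 to 571.8 CPM at 24m. The other higher receptors included Adgrl1, Oprl1, Adora1 and Adrb1.

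Of 23 tested effectors 6 were higher and 2 were lower, beside 10.3% and 4.17% of all tested genes. Prkar1b, a regulatory subunit of protein kinase A in neurons, was counted at 199.4, 224.2, 214.1 and 286.3 CPM at 6m and 384.1, 448.1, 430.0 and 425.7 CPM at 24m. The ages were far apart (log2FC 0.87 ± 0.108). The other higher effectors were Rasd2, Prkacb, Adcy5, Kcnj9 and Adcy9, that is, a striatal GTPase, a catalytic subunit of protein kinase A, adenylyl cyclases and a potassium channel opened by βγ. Kcnj9 (20 reads in all at 6m and 60 at 24m) and Adcy9 (11 and 40) passed the count minimum only through their aged libraries. Plcb1, the phospholipase C-β that Gq/11 activates, fell from 28.3, 27.1, 39.8 and 31.4 CPM to 7.62, 18.7, 17.9 and 23.0 CPM (-0.84 ± 0.261, adjusted p = 0.023), and so moved opposite to Gna11. Cacna1b, the N-type calcium channel that βγ inhibits, stood at 8.79 to 24.9 CPM at 6m and 4.57 to 12.8 CPM at 24m (-1.01 ± 0.355, adjusted p = 0.0425). The call of Plcb1 was lost without young replicate 3 (adjusted p = 0.105), young replicate 4 (0.0503) or aged replicate 2 (0.0531), and that of Cacna1b without any library other than young replicate 4 (adjusted p from 0.0509 to 0.151). Of 13 tested modulators 2 were higher, Gprin1 and Gpsm1.

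Several signalling genes of striatal projection neurons, only some of them of the Golf pathway, can be set beside each other. Gng7, Adcy5 (log2FC 0.63 ± 0.158, adjusted p = 0.00582) and Rasd2 (1.22 ± 0.23) were higher at 24m. Gnal and Ric8b, the chaperone of Golf (0.89 ± 0.375, adjusted p = 0.0913), were not called, and Rgs9 had a negative log2FC. The receptors Drd2 (0.14 ± 0.266) and Adora2a (-0.02 ± 0.266, adjusted p = 0.967) were not called either. Drd1 was not tested, with 9 reads in all at 6m and 21 at 24m. Summed markers of these neurons ranged from 1046.9 to 1166.6 CPM at 6m and from 1192.7 to 1411.5 CPM at 24m, with 2 of 9 tested markers called, Rasd2 among them. The part of tissue makeup in the difference of Gng7 was not tested. In hemispheres, fewer cells of a type and less RNA per cell cannot be told apart.

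Marker lists moved with age beside the members. Summed neuronal markers ranged from 1939.9 to 2127.0 CPM at 6m and from 2249.8 to 2584.9 CPM at 24m, with 3 of 7 called higher. They did not all move together. Rbfox3 (log2FC 0.52) and Syt1 (0.56) were not called. Tubb3 (-0.30, adjusted p = 0.0353) and Gad2 (-0.48, adjusted p = 0.243) had negative log2FC, also without a call. Astrocyte markers did not move together: Gfap (log2FC 1.94) and Slc1a3 (1.65) were higher, Slc1a2 (-0.59) was lower, and Aldh1l1 had a log2FC of -0.36 without a call. Their sum ranged from 246.4 to 321.5 CPM and from 392.0 to 525.9 CPM, and most of its difference came from Gfap, with 41.1 to 74.1 CPM at 6m and 179.5 to 284.1 CPM at 24m. Summed oligodendrocyte markers ranged from 1562.3 to 2109.6 CPM and from 2154.6 to 2888.2 CPM, with 2 of 5 called higher. Most of that difference came from Mbp, with a mean of 1072.6 CPM at 6m and 1770.2 CPM at 24m. Mobp and Mog (log2FC 0.35 each) and Mag (-0.08) were not called. Red blood cell markers were lower, with 3 of 3 called, at 3683.1 to 6104.8 CPM against 1992.0 to 3831.9 CPM. What part these had in the members' differences was not tested. Aged replicate 1 was the lowest library of its age in 16 of the 38 tested members, against 7, 5 and 10 for aged replicates 2, 3 and 4. It was the highest in 11, against 3, 13 and 11. Without it 11 members were called higher in place of 8, with Gnai1, Gng4 and Rgs20 added.

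Transcript length differed between the classes. The median canonical length of the tested members was 2318.5 bases for γ genes, 3470.0 for α genes and 3595.5 for RGS genes. Over all tested genes the median log2FC was -0.20 for transcripts of up to 1000 bases, -0.10 from there to 2000 bases, 0.02 to 3000 bases, 0.10 to 4000 bases and 0.07 above. None of the 6 tested members of up to 2000 bases was called, and few genes of that length were: 6.17% were higher and 3.83% lower up to 1000 bases, and 3.27% and 3.11% from there to 2000 bases. The part of length in the difference between α and γ genes was not tested.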

How the data were processed

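The table that the authors deposited holds raw counts of reads on each gene. Per the paper's methods, they made it from ONT direct RNA reads (MinION) of 8 hemispheres, mapped to GRCm39 with minimap2 (2.24 in the submitters' processing notes) and counted with featureCounts. The labels describe a poly(A) kit instead, and the settings for strand and overlap are not given in the sources used here. Counts were tested in R 4.3.3 with edgeR 4.0.16 (quasi-likelihood, TMM, age as the only term, mean count over 5), after a check on simulated counts. DESeq2 1.42.0 and limma 3.58.1 served as alternatives. Genes were matched by Ensembl identifier to GENCODE vM39. BLAST+ 2.17.0 found a transcript of another gene with at least 95 percent identity over at least 50 percent of the length for 3 of 38 tested members (Gnb4, Gng13 and Gng5), each a gene overlapping the same locus.

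Named are all called members, the 3 most counted of each class, the uncalled one with the smallest p, the most counted untested one, and the 5 pathway genes with the smallest p in each direction. Others were named after their values were seen. Members and lists were chosen with earlier results of these data known. Some genes of the lists are not reported here.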

Additional observations from a re-analysis of the deposited data

Results flagged for a closer look

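Within an age, 2 of 58 groups of 4 libraries examined held a library far from the others, where chance gives about 1 in 20. Gng13 at 24m was counted at 562.4 CPM in aged replicate 1 and at 377.4 to 378.4 CPM in the other aged libraries. The summed CPM of the α genes at 6m was 2668.4 in young replicate 3 and between 2431.0 and 2447.4 in the other young libraries. The cause was not tested for either.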

How the results depend on the processing

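The count of higher members was 8 and lay between 5 and 11 when each library was left out in turn. It was 5 without aged replicate 2 (losing Gna11, Gnai2 and Rgs8) or aged replicate 3 (losing Gnai2, Gnb1 and Rgs8), and 11 without aged replicate 1. The count of lower members was 2, between 1 and 2 with a library left out, 0 with over 5 counts required in every library, and 4 with the adjusted p alone, which adds Gng3 and Rgs9. Over the 18 alternatives Gng3 had log2FC from -0.38 to -0.16 and adjusted p from 0.000134 to 0.194. Rgs9 had log2FC from -0.53 to -0.35 and adjusted p from 0.0235 to 0.14. TMM factors ranged from 0.9582 to 0.9724 at 6m and from 0.9934 to 1.064 at 24m, and the CPM and their overlap depend on them. Gna12, Gnao1, Gng7 and Rgs4 kept their calls under all 18 alternatives, Rgs7bp under the 17 and Rgs17 under the 15 that tested it. Rgs8 lost its call under DESeq2 and limma-voom too (adjusted p from 0.0516 to 0.116), and Gna11 under limma-voom and under DESeq2 on quantile-normalized counts. Plcb1 lost its call in 5 of 17 alternatives and Cacna1b in 9 of 17.

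The log2FC of Gnas changed sign around 0: it was 0.0 with RLE factors and with DESeq2 on raw counts, 0.1 with library sizes alone, 0.01 with mitochondrially encoded genes left out, with a total count over 5 or with no filter, 0.05 with over 5 counts in every library, 0.27 with DESeq2 on quantile-normalized counts and 0.28 with limma-voom on quantile-normalized counts (adjusted p = 0.0303), and between -0.06 and 0.06 with a library left out. Library sizes alone moved the median of all genes to 0.102 and the share of calls that were higher from 71.2% to 84.5%, and limma-voom gave 59.2%. The median of the RGS genes was -0.04 with DESeq2 on quantile-normalized counts. Over all genes DESeq2 called 834 on raw and 819 on quantile-normalized counts, against 1359. Replicate numbers are only names: with a replicate block 9 members were higher and 2 lower, Gnai1 being added, and deviations of same-numbered libraries correlated at 0.0731, 0.00412, 0.00163 and -0.141. The cause of these changes was not tested.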
